A study of Mus musculus with 10 samples.

Results

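The endothelin axis was followed as 7 genes of the 54532 in the FPKM table (fragments scaled by gene length and library size): the ligand genes Edn1, Edn2 and Edn3, the converting enzyme genes Ece1 and Ece2, and the receptor genes Ednra and Ednrb. Members were taken by gene symbol, and each matched exactly 1 row. The samples were whole lungs of wild-type C57BL/6J mice. The IPF group (increased pulmonary flow, 5 mice) had an aortocaval fistula made at P7, a needle-made opening between the abdominal aorta and the adjoining vein that sends extra blood through the lungs. The sham group (5 mice) had the same operation without the puncture, and all lungs were taken at P30.

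Endothelins are vasoconstrictor peptides made as long precursors. Furin-type proteases release an inactive intermediate, big endothelin, and the membrane metalloproteases encoded by Ece1 and Ece2 cut it to the active peptide. In the lung vasculature the A receptor (Ednra) sits on smooth muscle and pericytes and drives contraction and growth, whereas the B receptor (Ednrb) sits largely on endothelium, where it releases nitric oxide and prostacyclin and clears endothelin from the blood. Blockers of these receptors are an established treatment of pulmonary arterial hypertension.

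The 3 ligands are told apart by a short stretch. The lines here show the bases that encode the mature peptide, in lower case up to its last codon, to make visible what the converting enzymes act on. The capitals mark the last codon of the mature peptide and the codon after it, and the enzymes cut the bond between them. The sequences were found by a pattern search in the longest reading frame of the GENCODE M39 transcripts.
Edn1: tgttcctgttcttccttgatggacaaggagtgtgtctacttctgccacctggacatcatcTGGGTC
Edn2: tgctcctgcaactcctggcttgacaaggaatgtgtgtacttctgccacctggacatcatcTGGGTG
Edn3: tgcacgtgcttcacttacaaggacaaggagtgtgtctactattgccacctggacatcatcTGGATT
Over the 63 bases of the mature peptide, Edn1 differed from Edn2 at 10 and from Edn3 at 13, and Edn2 from Edn3 at 15. The last codon of the mature peptide was the same in all 3.

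Between 15483046 and 19026843 reads per sample lay on genes, as recovered from the FPKM values. Sham replicate 1 stood slightly apart, with a mean Spearman correlation across genes of 0.912 with the other samples, against 0.929 to 0.932 for the 9 others. Xist, which is transcribed from the inactive X chromosome, was at 26.8 to 43.2 FPKM in the IPF samples and 0.0301 to 0.0767 FPKM in the sham samples, while Ddx3y of the Y chromosome had no read in any IPF sample and was at 14.3 to 21.4 FPKM in the sham samples. All 5 sex-linked genes examined separated the groups without overlap, as lungs of females in the IPF group and of males in the sham group would. The study's methods describe a cohort of both sexes, balanced between the groups where possible, and no source used here gives the sex of the sequenced lungs. Of 13 genes of the circadian clock, 12 passed an adjusted p under 0.05, 3 higher and 9 lower in IPF. These differences cannot be told apart from the operation in any comparison of the groups. Markers of alveolar type 2 cells were high in every sample, as a lung should show, with a summed level of 12805 to 20245 FPKM. As whole lungs were measured, a change in the number of cells of a type and a change in RNA per cell cannot be told apart.

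No member of the endothelin axis changed in IPF lungs beyond the test's threshold. The limma model was fitted to log2(FPKM + 0.1) of the 20448 genes averaging 0.1 FPKM or more, and p-values were adjusted over all of them by the Benjamini-Hochberg method. Edn1, Edn3, Ece1, Ednra and Ednrb passed this filter on low values, and 0 of these 5 had an adjusted p under 0.05 in either direction, where 5.85% of all genes tested did (3.71% higher and 2.14% lower in IPF). None passed an absolute log2 fold change above 1 as well, which 1.14% of all genes did (0.68% higher and 0.46% lower). At an unadjusted p under 0.05 there was 1 member, Edn3, against 19.5% of all genes tested. In no member did the 5 IPF samples lie wholly on one side of the 5 sham samples, a pattern seen in 7.29% of all genes tested (4.52% with IPF above sham and 2.77% with IPF below). Exact permutation tests were two-sided over all assignments of the 10 samples, and their p-values are not adjusted over the 5 genes.

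**Figure D1:**
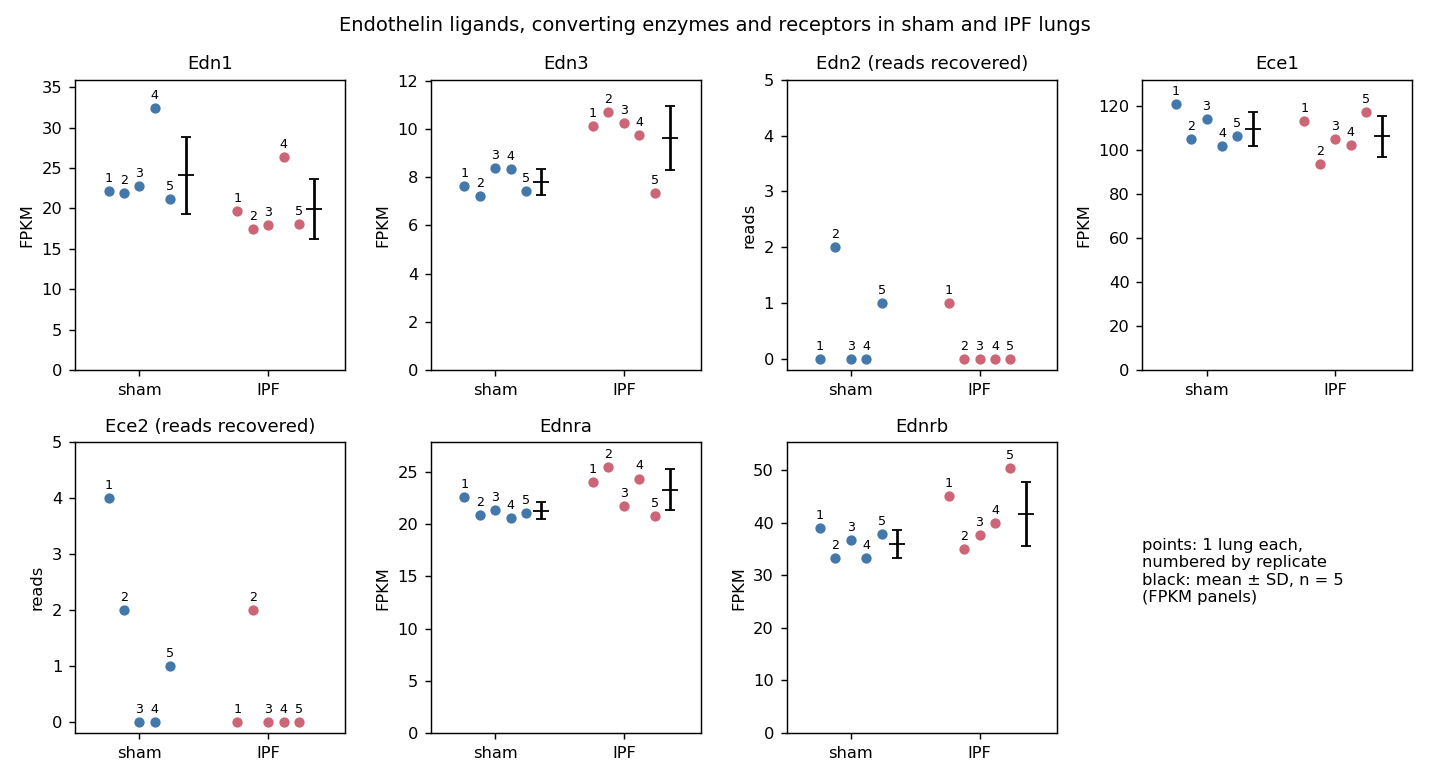
Level of each endothelin gene in every lung, in FPKM for 5 genes and in reads for Edn2 and Ece2, with the replicate number beside each point and, in the FPKM panels, the mean ± SD (n = 5) in black. Replicate 4 is the highest Edn1 sample in both groups, and IPF replicate 5 is the IPF sample that falls within the sham range of Edn3.

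Edn1 (ENSMUSG00000021367, chromosome 13 of GRCm38, 42301476 to 42307990, plus strand) encodes the main vascular endothelin. Its level was 19.7, 17.5, 18.0, 26.4 and 18.1 FPKM in IPF replicates 1 to 5, and 22.2, 21.9, 22.8, 32.4 and 21.1 FPKM in sham replicates 1 to 5. In 4 of the 5 IPF samples Edn1 was below every sham sample. The exception was IPF replicate 4, which lay above 4 of the 5 sham samples, and the highest sham sample was again replicate 4. The means were 19.9 ± 3.70 FPKM in IPF and 24.1 ± 4.71 FPKM in sham (SD, n = 5 each). On the log2 scale the difference, IPF minus sham, was -0.27 (standard error 0.14, 95% interval -0.58 to 0.03, limma adjusted p = 0.314). The exact permutation test gave p = 0.119. The interval reaches from a level 0.671 times that of sham to 1.02 times, so no change is within it. Leaving out IPF replicate 4 gave -0.38 on the log2 scale (limma adjusted p = 0.126; exact permutation test, p = 0.0159), and leaving out sham replicate 4 gave -0.16 (limma adjusted p = 0.498). Each IPF sample was below the sham sample of its own replicate number. In a fit that pairs samples by that number, Edn1 passed (-0.27, limma adjusted p = 0.0279), but no label says that the numbers are pairs.

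Between 623 and 1156 reads per sample lay on Edn1. Its standard error was larger than that of 90.2% of the 3743 genes whose mean level was within 2-fold of its own. The gene overlaps the antisense RNA Gm47118 on the opposite strand, which was at 0.141 to 1.82 FPKM, and the sources used here do not say whether strand was used in counting.

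Edn3 (ENSMUSG00000027524, chromosome 2, 174760619 to 174784042, plus strand), whose peptide acts mainly through the B receptor and is best known for guiding neural crest cells, showed the opposite sign. Its level was 10.1, 10.7, 10.3, 9.74 and 7.34 FPKM in IPF replicates 1 to 5, against 7.66, 7.21, 8.39, 8.35 and 7.43 FPKM in sham replicates 1 to 5. In IPF replicates 1 to 4 it was above every sham sample, and in IPF replicate 5 it was below 4 of the 5. The means were 9.63 ± 1.33 and 7.81 ± 0.537 FPKM (SD, n = 5 each). On the log2 scale the difference, IPF minus sham, was 0.29 (standard error 0.10, 95% interval 0.07 to 0.51). This had an unadjusted p of 0.0139 and did not pass after adjustment (limma adjusted p = 0.126), and the exact permutation test gave p = 0.0397. That exact p was 0.0635 to 0.0794 when any sample other than IPF replicate 5 was left out, and 0.0159 without IPF replicate 5.

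The call of Edn3 turned on 1 library. Without IPF replicate 5 the log2 fold change was 0.38 with a limma adjusted p of 0.00526, while leaving out any other sample gave log2 fold changes of 0.25 to 0.32 and limma adjusted p-values of 0.150 to 0.259. IPF replicate 5 also stood apart in other genes. Arntl, a transcription factor that drives the clock, was at 3.31 FPKM in it, at 5.61 to 6.85 FPKM in the other IPF samples and at 0.311 to 0.452 FPKM in the sham samples. The clock output gene Dbp was at 3.49 FPKM in it, at 1.74 to 2.17 FPKM in the other IPF samples and at 23.2 to 29.3 FPKM in the sham samples. For both genes, then, IPF replicate 5 was the IPF sample nearest to the sham group, as it was for Edn3. The summed level of 6 neutrophil genes was 297 FPKM in IPF replicate 5, 51.7 to 72.8 FPKM in the other IPF samples and 14.6 to 71.4 FPKM in the sham samples, so here IPF replicate 5 was the sample farthest from the sham group. All 6 had a positive sign, with a median log2 fold change of 1.03, and none passed. The part of the clock genes or of neutrophils in the Edn3 values was not tested.

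The ratio of the ligands, whose fold changes had opposite signs, separated the groups by a narrow gap. The ratio of Edn1 to Edn3, both in FPKM and so per length, was 1.94, 1.63, 1.75, 2.71 and 2.47 in IPF replicates 1 to 5, and 2.89, 3.04, 2.72, 3.89 and 2.84 in sham replicates 1 to 5. The highest IPF sample, replicate 4, lay just under the lowest sham sample, replicate 3. The mean ratio was 2.10 ± 0.466 in IPF and 3.08 ± 0.467 in sham (SD, n = 5 each). The ratio was chosen after the values of the members had been seen, and it is given as a description, with no test. How often a gene ratio separates these groups was not computed, while 7.29% of single genes tested did so. The ratios of Ece1 to Edn1 (3.88 to 6.49 in IPF, 3.14 to 5.46 in sham) and of Ednrb to Edn1 (1.52 to 2.78 in IPF, 1.02 to 1.79 in sham) overlapped between the groups.

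**Figure D2:**
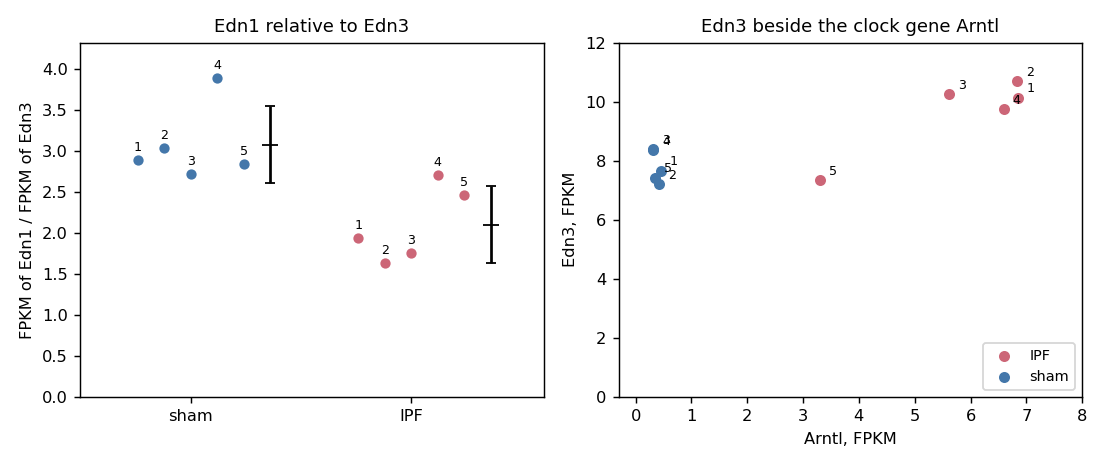
Left, the FPKM of Edn1 divided by that of Edn3 in each lung (points, numbered by replicate), with the mean ± SD (n = 5) in black. Right, the FPKM of Edn3 against that of the clock gene Arntl in the same lungs, where IPF replicate 5 (3.31 FPKM of Arntl, 7.34 FPKM of Edn3) lies between the other IPF samples and the sham samples on the Arntl axis.

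Edn2 (ENSMUSG00000028635, chromosome 4, 120161206 to 120167360, plus strand), which in other organs is made mainly in the gut and the ovary, was at the floor. It had 0 to 2 reads per sample, 1 read in all over the 5 IPF samples and 3 over the 5 sham samples. With 0 reads in a sample a level of up to 3 reads is allowed, which for Edn2 corresponds to 0.109 to 0.135 FPKM, depending on the sample. No fold change is given, and a difference in Edn2 was not detectable at this depth. These limits cover counting error only.

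Of the converting enzymes, Ece1 carried nearly all of the measured RNA. Ece1 (ENSMUSG00000057530, chromosome 4, 137862237 to 137965229, plus strand) was the most abundant member, with a mean of 108.0 FPKM over the 10 samples, and ranked 343 by mean among the 31425 genes with a read. Its level was 113, 93.9, 105, 102 and 117 FPKM in IPF replicates 1 to 5 and 121, 105, 114, 102 and 106 FPKM in sham replicates 1 to 5. The groups overlapped almost completely, with means of 106 ± 9.27 FPKM in IPF and 110 ± 7.69 FPKM in sham (SD, n = 5 each). The log2 fold change was -0.05 (standard error 0.08, 95% interval -0.21 to 0.12, limma adjusted p = 0.789; exact permutation test, p = 0.524). The interval corresponds to 0.864 to 1.09 times the sham level, so a change larger than that in either direction is outside it. Between 8295 and 11017 reads per sample lay on Ece1.

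Ece2 (ENSMUSG00000022842, chromosome 16, 20629828 to 20646485, plus strand), which is mainly a neural enzyme, had 0 to 4 reads per sample, 2 over the 5 IPF samples and 7 over the 5 sham samples. Its highest level was 0.0475 FPKM, in sham replicate 1, and 3 reads correspond to 0.0311 to 0.0385 FPKM. It shares its span with the readthrough gene Gm49333 on the same strand, which was listed at 0 in every sample. A difference in Ece2 was not detectable with these reads, and whether reads common to both genes were dropped in counting was not tested.

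**Figure D3:**
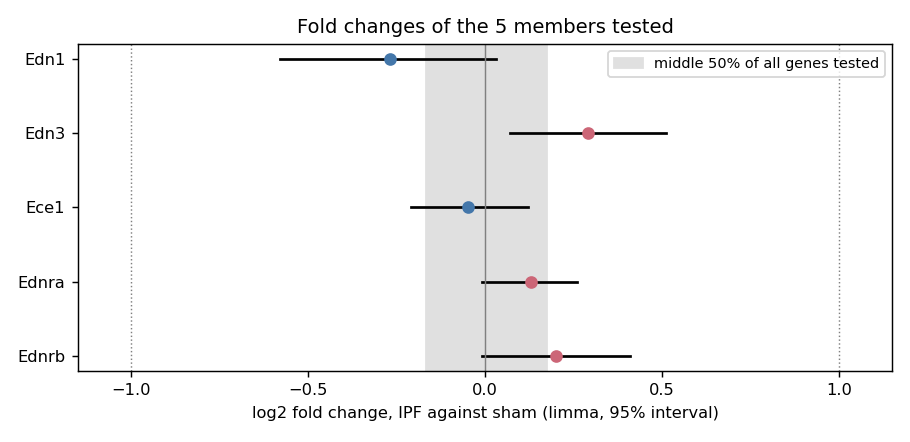
Log2 fold change (IPF against sham) of the 5 members tested, as points with their 95% intervals from limma. The grey band is the middle 50% of all genes tested (-0.17 to 0.17) and the dotted lines mark a log2 fold change of 1 in either direction, which none of the intervals reaches.

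Both receptors were slightly higher in IPF on average, within the spread between mice. Ednra (ENSMUSG00000031616, chromosome 8, 77663031 to 77724464, minus strand), the contractile receptor, was at 24.1, 25.5, 21.8, 24.4 and 20.8 FPKM in IPF replicates 1 to 5 and at 22.6, 20.8, 21.4, 20.6 and 21.0 FPKM in sham replicates 1 to 5. In 3 of 5 IPF samples it was above every sham sample, whereas IPF replicates 3 and 5 lay within the sham range. The means were 23.3 ± 1.95 and 21.3 ± 0.776 FPKM (SD, n = 5 each). On the log2 scale the difference, IPF minus sham, was 0.13 (standard error 0.06, 95% interval -0.01 to 0.26, limma adjusted p = 0.306; exact permutation test, p = 0.0794). The upper end of the interval is 1.20 times the sham level. Without IPF replicate 5 the exact permutation p was 0.0317 and the limma adjusted p 0.124. Ednra overlaps the non-coding 4933431K23Rik on the opposite strand, which was at 0.127 to 0.330 FPKM.

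Ednrb (ENSMUSG00000022122, chromosome 14, 103814625 to 103844402, minus strand), the endothelial and clearing receptor, was at 45.1, 35.0, 37.6, 40.0 and 50.3 FPKM in IPF replicates 1 to 5 and at 38.9, 33.2, 36.7, 33.2 and 37.9 FPKM in sham replicates 1 to 5. IPF replicates 1, 4 and 5 were above every sham sample, and IPF replicates 2 and 3 lay within the sham range. The means were 41.6 ± 6.10 and 36.0 ± 2.64 FPKM (SD, n = 5 each). On the log2 scale the difference, IPF minus sham, was 0.20 (standard error 0.10, 95% interval -0.01 to 0.41, limma adjusted p = 0.283; exact permutation test, p = 0.0952). The interval reaches 1.33 times the sham level. Leaving out IPF replicate 5 gave 0.13 on the log2 scale and leaving out IPF replicate 2 gave 0.26, the lowest and highest values over the fits that omit a sample. Without IPF replicate 2 the exact permutation p was 0.0476 and the limma adjusted p 0.177. Within the IPF group Ednrb and Ece1 had the same order except for 1 pair: both were highest in replicates 5 and 1 and lowest in replicate 2.

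By level per length, the order of the members was Ece1, Ednrb, Ednra and Edn1, Edn3, and last Edn2 and Ece2. Ece1 was 2.34 to 3.17 times Ednrb, Ednrb was 1.37 to 2.42 times Ednra, and Edn1 was 1.63 to 3.89 times Edn3, and each of these held in 10 of 10 samples. Ednra and Edn1 did not differ beyond their spread. Ednra was the higher in 4 of 5 IPF samples and in 1 of 5 sham samples. The ratio of Ednrb to Ednra was 1.81 ± 0.387 in IPF and 1.69 ± 0.0861 in sham (SD, n = 5 each), with the IPF samples from 1.37 to 2.42 on both sides of the sham range of 1.59 to 1.80.

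The cell types that make or receive endothelins were read from marker lists. Over 9 markers of all endothelium the summed level was 1326 to 1492 FPKM in IPF and 1146 to 1226 FPKM in sham, with a median log2 fold change of 0.12, where the median of all genes tested was 0.00. Of these 9 genes 1 passed an adjusted p under 0.05, Cldn5, a tight junction protein of endothelium, at 451 ± 20.7 against 309 ± 42.8 FPKM (SD, n = 5 each), 0.56 higher on the log2 scale (limma adjusted p = 0.0107). Most of the gap between the summed levels was in that gene, and Cdh5, the adhesion protein of endothelial junctions, was at 306 ± 29.9 and 280 ± 20.2 FPKM (SD, n = 5 each). Over 7 markers of the aerocyte, the capillary cell type in which Ednrb is itself a known marker, 0 passed, 5 were higher and 2 lower, the median log2 fold change was 0.18, and the summed level was 545 to 672 FPKM in IPF and 542 to 613 FPKM in sham. IPF replicates 5 and 1 had the highest summed aerocyte level of the IPF samples, as they had of Ednrb. This order was not particular to aerocytes. The same replicates were highest of the IPF samples in the sum over all endothelium (1492 and 1424 FPKM) and in that of the genes around the endothelins described below (1978 and 1953 FPKM).

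Among 9 arterial markers, 6 with a positive and 3 with a negative sign, 2 passed, both higher and both named after their values were seen (2 of 9, beside 3.71% of all genes tested that were higher). They were the connexin genes Gja5 (log2 fold change 0.76, limma adjusted p = 0.0211) and Gja4 (log2 fold change 0.44, limma adjusted p = 0.0270), and the summed arterial level was 291 to 336 FPKM in IPF and 279 to 302 FPKM in sham. Of 9 smooth muscle markers, 3 with a positive and 6 with a negative sign, 1 passed, lower, beside 2.14% of all genes tested that were lower, and the summed level was 179 to 295 FPKM in IPF and 198 to 240 FPKM in sham. Of 8 pericyte markers, 5 with a positive and 3 with a negative sign (median log2 fold change 0.05), 1 passed, lower, with summed levels of 213 to 259 FPKM in IPF and 208 to 230 FPKM in sham. The part of cell composition in the values of the receptors was not tested.

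The genes around the endothelins were taken from a list of 68, of which 67 could be tested. Of these, 3 passed an adjusted p under 0.05, all higher in IPF (3 of 67, beside 5.85% of all genes tested), and 1 of them also passed the fold change limit. The median log2 fold change of the list was -0.04, with 31 genes higher and 36 lower.

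**Figure D4:**
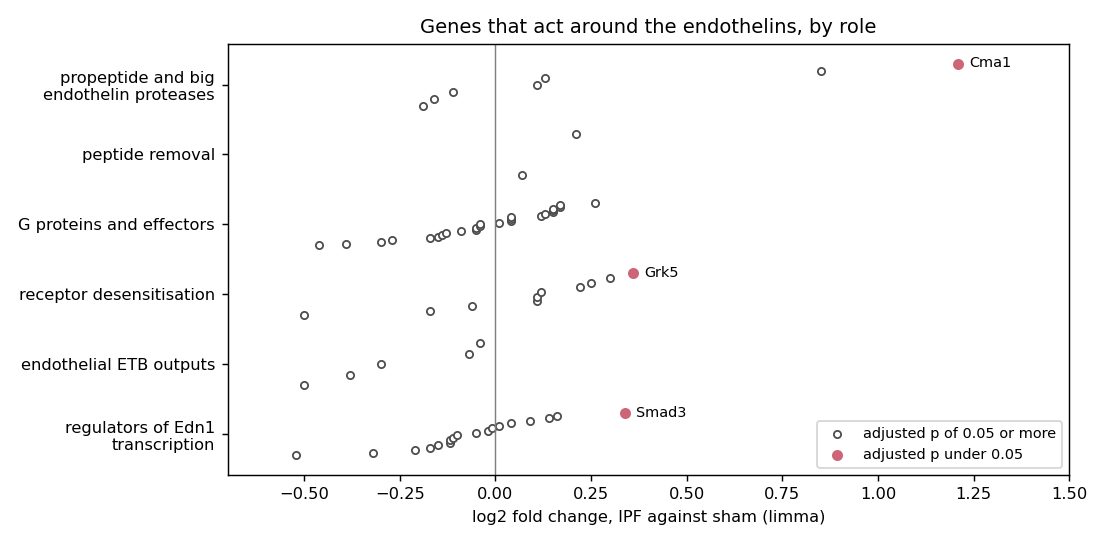
Log2 fold change (IPF against sham) of the 67 genes tested around the endothelins, 1 point per gene, by role. Filled points passed an adjusted p under 0.05 from limma: Grk5, Cma1 and Smad3.

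Grk5 (ENSMUSG00000003228) had the smallest adjusted p of the list. It encodes a kinase that phosphorylates occupied G protein-coupled receptors, endothelin receptors among them, and so starts their desensitisation. Its lowest IPF sample was at 32.7 FPKM, and the sham samples were at 25.6 to 30.6 FPKM. Every IPF sample lay above every sham sample. The means were 36.8 ± 2.49 and 28.6 ± 1.90 FPKM (SD, n = 5 each). On the log2 scale the difference, IPF minus sham, was 0.36 (standard error 0.07, limma adjusted p = 0.00873), and the call held in 18 of 18 alternatives. The 9 other genes of receptor desensitisation (other Grk kinases, arrestins and Rgs proteins) did not pass.

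Cma1 (ENSMUSG00000022225) encodes a mast cell protease of the chymase family, listed with the proteases of big endothelin. Whether the mouse enzyme cuts big endothelin was not examined here. Cma1 was low in all lungs, at 0.467 to 1.26 FPKM in IPF (9 to 25 reads) and 0.167 to 0.386 FPKM in sham (3 to 7 reads), but the groups did not overlap. The log2 fold change was 1.21 (standard error 0.26, limma adjusted p = 0.0211), and it ranged from 0.49 to 1.45 over 17 alternatives. Without IPF replicate 1, 2 or 4 the limma adjusted p was above 0.05, with 0.0570 the highest. The mast cell protease gene Cpa3 was higher too, at 4.86 ± 2.00 against 0.909 ± 0.247 FPKM (SD, n = 5 each), 2.20 higher on the log2 scale (limma adjusted p = 0.00345). Mcpt4, a mast cell protease gene listed in the same role as Cma1, did not pass (log2 fold change 0.85, limma adjusted p = 0.220). It had 2 to 11 reads in IPF and 1 to 5 in sham. Of 5 mast cell markers tested 2 passed, Cma1 itself and Cpa3, beside 3.71% of all genes tested that were higher, and all 5 had a positive sign. The summed level of the 6 listed mast cell genes was 44.2 to 48.9 FPKM in IPF and 35.8 to 41.7 FPKM in sham, but nearly all of it was Kit, which is also in the general capillary list and did not pass. Without Kit the summed level was 2.92 to 8.55 FPKM in IPF and 1.11 to 1.94 FPKM in sham.

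Smad3, a TGF-β signal transducer that acts on the Edn1 promoter, was the third, 0.34 higher on the log2 scale with a limma adjusted p of 0.0343, and the call held in 8 of 18 alternatives. The other 17 regulators of Edn1 transcription did not pass. Among them were Jun and Fos of AP-1, Gata2 and Hif1a, whose elements lie in the Edn1 promoter. The promoter window of Edn1 (RefSeq, GRCm38.p6, 42301226 to 42301525 of chromosome 13) was searched on both strands for 6 motifs. The GATA motif, spelled GATAA, occurred once, and 25.4% of the 32851 promoters of the same length hold it. The core of the hypoxia element, ACGTG, occurred once, where 19.6% of promoters hold it. An AP-1-like element, TGACTAA, occurred once as well, where 2.35% of promoters hold it. The E-box CACGTG, which contains the hypoxia core, did not occur (7.15% of promoters), nor did the AP-1 motif TGANTCA (7.81%), nor the D-box TTANGTAA (2.32%). The stretch that holds the hypoxia core and the AP-1-like element lies 19 to 48 bases after the annotated RefSeq start. Whether lung transcripts begin at that start was not examined. The matches are in capitals, and the hypoxia core is read on the opposite strand there.
Edn1, chr13:42301494-42301523, plus strand: ctgCACGTtgcctgtgggTGACTAAtcaca
None of the 6 motifs occurred in the windows of Edn2, Edn3, Ednra or Ednrb, which says only that these letters are absent there. Of the 4 windows of Ece1 only 1 held any, the E-box, and the window of Ece2 held the hypoxia core.

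The genes that the B receptor acts through in endothelium all had a negative sign and none passed. These 5 were Nos3 (nitric oxide synthase, log2 fold change -0.07), Akt1 (-0.04), Ptgis (prostacyclin synthase, -0.30), Ptgs2 (-0.38) and Ptgs1 (-0.50, limma adjusted p = 0.0764), where Ptgs1 and Ptgs2 are the cyclooxygenases. Ptgs1 was at 14.5 to 18.5 FPKM in IPF replicates 1 to 4, at 27.1 FPKM in IPF replicate 5 and at 23.7 to 28.3 FPKM in sham. Without IPF replicate 5 Ptgs1 had a log2 fold change of -0.65 and a limma adjusted p of 0.00127. With all 10 samples it also passed under limma voom on the recovered reads, at -0.51 and an adjusted p of 0.0239. Ptgis passed without sham replicate 1, at -0.38 and a limma adjusted p of 0.0203. Without IPF replicate 5, 3 genes of the list were higher and 6 lower at an adjusted p under 0.05, the 6 being Ptgs1, Rgs4, Plcb4, Prkca, Pcsk7 and Itpr3, while over all genes tested 950 were higher and 670 lower. Of the proteases that remove endothelins, Mme (neprilysin) was at 20.6 ± 1.34 and 17.8 ± 1.02 FPKM and Ctsa (cathepsin A) at 32.0 ± 1.16 and 30.6 ± 1.68 FPKM in IPF and sham (SD, n = 5 each), and neither passed. Of the 25 G proteins and effectors none passed, 12 with a positive and 13 with a negative sign.

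Genes whose sample-to-sample pattern was closest to each member were ranked among 13445 genes with a mean of at least 1 FPKM, by the Pearson correlation over the 10 samples after the group means were removed. The highest of so many correlations over 10 libraries is high for any gene, and genes of 1 library share its depth and composition, so these are descriptions. For Edn1 they included Ptbp1, a splicing repressor (0.93), and Siah2, a ubiquitin ligase (0.88). For Edn3 they were Alg8 (0.97), Nat8f4 (0.96) and the tRNA synthetase gene Vars (0.95). For Ece1 they were Mocs1 (0.96), Bcr (0.95) and Wdr33 (0.95), for Ednra Tbck (0.94), Gfm2 (0.94) and Exoc1 (0.93), and for Ednrb Rusc2 (0.98), the kinase gene Map3k3 (0.98) and Fntb (0.97). None of the genes named here had a limma adjusted p under 0.05 between the groups.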

How the data were processed

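Whole-lung mRNA of 10 mice, 5 IPF and 5 sham by sample title, was analysed. The authors trimmed the read pairs (Fastp), mapped them (HISAT2), made expression estimates (StringTie) and deposited FPKM values for 54532 genes. GRCm39 is named in the methods, whereas gene positions in the table fit GRCm38 (chromosome 1 has its last gene end at 195323493). Bowtie 0.12.2 appears in the submitters' processing notes. The library kit is given differently, KAPA in the methods and NEBNext in the sample records.

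In each sample, FPKM times gene length, divided by the worth of 1 read in that sample (a step estimated from its low values, different in each sample), gave whole reads (within 0.01 for values below 1000 reads). No pair of samples within a group was a copy (chi-square per degree of freedom of at least 4.78). Genes with a mean of at least 0.1 FPKM were fitted with limma 3.58.1 in R 4.3.3 (trended variances, no covariate) on log2(FPKM + 0.1), a scale that understates changes of low genes, and the code was tested on simulated data. Exact tests used scipy 1.17.1. No label says that replicates of one group are separate litters or cohorts, so p-values measure the spread between these samples.

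The members, gene lists and tests were chosen with earlier results of these data known. Named are the 7 members, pathway genes with an adjusted p under 0.05, the 3 genes most like each member (1 of them is not reported here), at most 2 abundant genes per marker list, and Xist, Ddx3y, Arntl and Dbp. Others were named after their values were seen. Alternatives were pseudocounts of 1 and 0.01, no filter, a mean of at least 1 FPKM, median-of-ratios scaling, a replicate block, limma voom on the recovered reads, no variance trend, and leaving out each sample.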

Additional observations from a re-analysis of the deposited data

Results flagged for a closer look

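In 3 of the 10 groups of 5 samples (5 members, 2 groups each), the gap of 1 sample to its nearest neighbour was above 0.71 of the group's range, Dixon's 95% limit for 5 samples, where chance gives about 1 in 20. For Edn1 these were IPF replicate 4, at 26.4 FPKM (0.754 of the range), and sham replicate 4, at 32.4 FPKM (0.852 of the range). For Edn3 it was IPF replicate 5, at 7.34 FPKM (0.716 of the range), the sample that was also nearest to the sham group in Arntl and Dbp.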

How the results depend on the processing

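The sign of each of the 5 members tested was the same in all 18 alternatives. For Ece1 the sign says little, as its log2 fold change was -0.08 to -0.0025 over the fits that omit a sample. Of the counts of members called, that of genes higher was 0 to 1 over the fits that omit a sample (1, Edn3, without IPF replicate 5), and that of genes lower became 1 (Edn1, log2 fold change -0.27, limma adjusted p = 0.0279) with the replicate block. No label says that equal replicate numbers are pairs. Deviations of same-numbered samples correlated at -0.02 to 0.095, with the sample closest to its own number in 3 of 5. This check does not settle whether the numbers pair the samples, so the block is kept as an alternative. Exact permutation p-values lay between 0.0159 (without IPF replicate 4) and 0.238 for Edn1, 0.0159 (without IPF replicate 5) and 0.0794 for Edn3, 0.0317 (without IPF replicate 5) and 0.159 for Ednra, and 0.0476 (without IPF replicate 2) and 0.190 for Ednrb when each sample was left out. The counts over all genes lay between 494 and 950 higher, 274 and 670 lower, and 171 and 299 at both limits when each sample was left out, and at both limits were 74 at pseudocount 1 and 154 under the filter of 1 FPKM, where the reported fit had 233. Of the pathway genes, 1 to 4 were higher, 0 to 6 lower and 0 to 1 at both limits when each sample was left out. Lower were 1 under the filter of 1 FPKM, 1 with the replicate block and 4 with voom, and at both limits 0 at pseudocount 1 and 0 under the filter of 1 FPKM. Cma1 is left out by that filter, and the cause of the other moves was not tested. Among the members, Edn2 and Ece2 had too few reads to compare. Low reads also limit Cma1, Mcpt4 and Kel of the pathway list.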

Other observations

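Of the other cell types, general capillary cells had 1 of 6 markers higher (Aplnr, log2 fold change 0.82), veins 1 of 6 (Nr2f2, 0.37) and fibroblasts 2 of 10 (Pdgfra, 0.35, and Lum, 1.09), all named after their values were seen. Of all genes tested, 3.71% were higher at a limma adjusted p under 0.05. The signs within these lists were mixed, with 3 positive and 3 negative in general capillary cells, 3 and 3 in veins, and 4 and 6 in fibroblasts, whose median log2 fold change was -0.02. None passed an adjusted p under 0.05 from limma among 6 lymphatic, 5 mesothelial, 6 alveolar type 1, 7 alveolar type 2, 7 ciliated, 6 secretory, 6 neutrophil, 4 Schwann and 5 heart muscle genes tested. Summed levels of the secretory list ran from 3713 to 27464 FPKM in IPF and from 11530 to 22996 FPKM in sham.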
